A study of Oryza sativa with 25 samples.

Results

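Growing callus and shoot of rice (Oryza sativa) were compared on 6 of the 25 Affymetrix Rice Genome Arrays of the series, 3 per group, chosen by sample title. Per the labels, callus was raised from seeds on MS medium for 3 weeks at 30 °C, and growing callus is the callus with no day on regeneration medium. Shoot was 4 weeks old and came from a growth chamber at 30 °C. The other groups were callus after 2, 4, 6 and 8 days on regeneration medium and whole root (3 arrays each), and young leaf (4 arrays). Root and young leaf came from a greenhouse and are labelled with leaf number 4. The labels name no strain, hormone or light regime, so culture medium, light and age can differ between callus and shoot together with the tissue and cannot be told apart from it. Replicates are called biological, but the labels do not say that they came from separate cultures or plants, so p-values measure only the spread between these samples.

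Callus is a mass of plant cells that divide without forming organs, and rice callus from seeds usually starts at the scutellum of the embryo. A shoot grows from an apical meristem, where some KNOX homeobox genes keep cells undetermined. Leaf primordia at the flank of the meristem use YABBY, TCP and class III HD-ZIP genes to set the polarity and growth of the leaf. Both tissues hold dividing cells, so the comparison sets disorganized against organized growth.

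Values are intensities scaled so that the 75th percentile of an array is 1. Differences are growing callus minus shoot on the log2(intensity + 0.0274) scale, given with the standard error (SE) of 1 limma fit over all 25 arrays. Adjusted p-values are limma's, with Benjamini-Hochberg adjustment over 37212 probe sets. A gene is said to have risen or fallen in growing callus, relative to shoot, where its adjusted p lay under 0.05 and its fold was at least 2. No detection call was applied, so a difference against a level under the median of all values (0.274) depends on the added constant, and the order of such differences carries no information. In bulk tissue, fewer cells of a type and less RNA per cell cannot be told apart.

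Arrays of the same group correlated at 0.971 to 0.985 across tested probe sets, and growing callus arrays correlated with shoot arrays at 0.769 to 0.792. The labels state that too much poly(A) control was added to growing callus replicate 2. The storage proteins of the seed that callus was raised from (glutelins, prolamin and globulin) matched 8 genes, of which 3 were tested. The 8 genes summed to 3.37 to 4.51 in callus arrays and 4.45 to 5.02 in shoot arrays. Most of both sums came from the globulin gene GLB, at 2.19 to 3.07 in callus and 3.28 to 3.63 in shoot. Its means were higher in root (4.40) and young leaf (8.29). The 5 glutelin genes not tested read at most 0.225 in all 6 arrays. Shoot replicate 2 stood apart in root markers. The 7 matched root markers summed to 2.70, 11.9 and 3.89 in shoot replicates 1, 2 and 3, to 5.49 to 8.45 in callus and to 180 to 198 in root. Most of the callus sum came from OsWOX11, and the other 6 markers summed to 2.45 to 2.72 in callus, to 2.24, 10.7 and 3.49 in shoot and to 179 to 198 in root. NIP2-1, a silicon channel of the root, read 0.993, 7.10 and 1.95 in the shoot arrays and 146 to 150 in root. No stomatal marker was matched, so that cell type was not checked.

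Of the 37212 probe sets, 3792 (10.2%) rose in growing callus and 4407 (11.8%) fell. Taken as 1 probe set per gene, 14.0% of 16836 genes rose and 16.8% fell, with a median difference of 0.05. The counts of gene lists below are to be read against 14.0% and 16.8%. With no fold threshold 25.2% of probe sets were higher and 22.1% lower. At 4-fold the shares were 3.31% and 4.86% of probe sets, and 4.73% and 7.41% of genes. Photosystem, YABBY, TCP, cellulose synthase, aquaporin and jasmonate genes had median differences from -3.42 to -1.31. WOX, embryo and root regulator, low-oxygen and chitinase genes had medians from 2.17 to 5.04. The list of mitotic cyclins, kinases and kinesins had a median of -0.50, and its 10 genes other than kinesins had -0.31. The ribosomal protein genes had a median of 0.32 and the DNA replication genes 0.67.

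**Figure D1:**
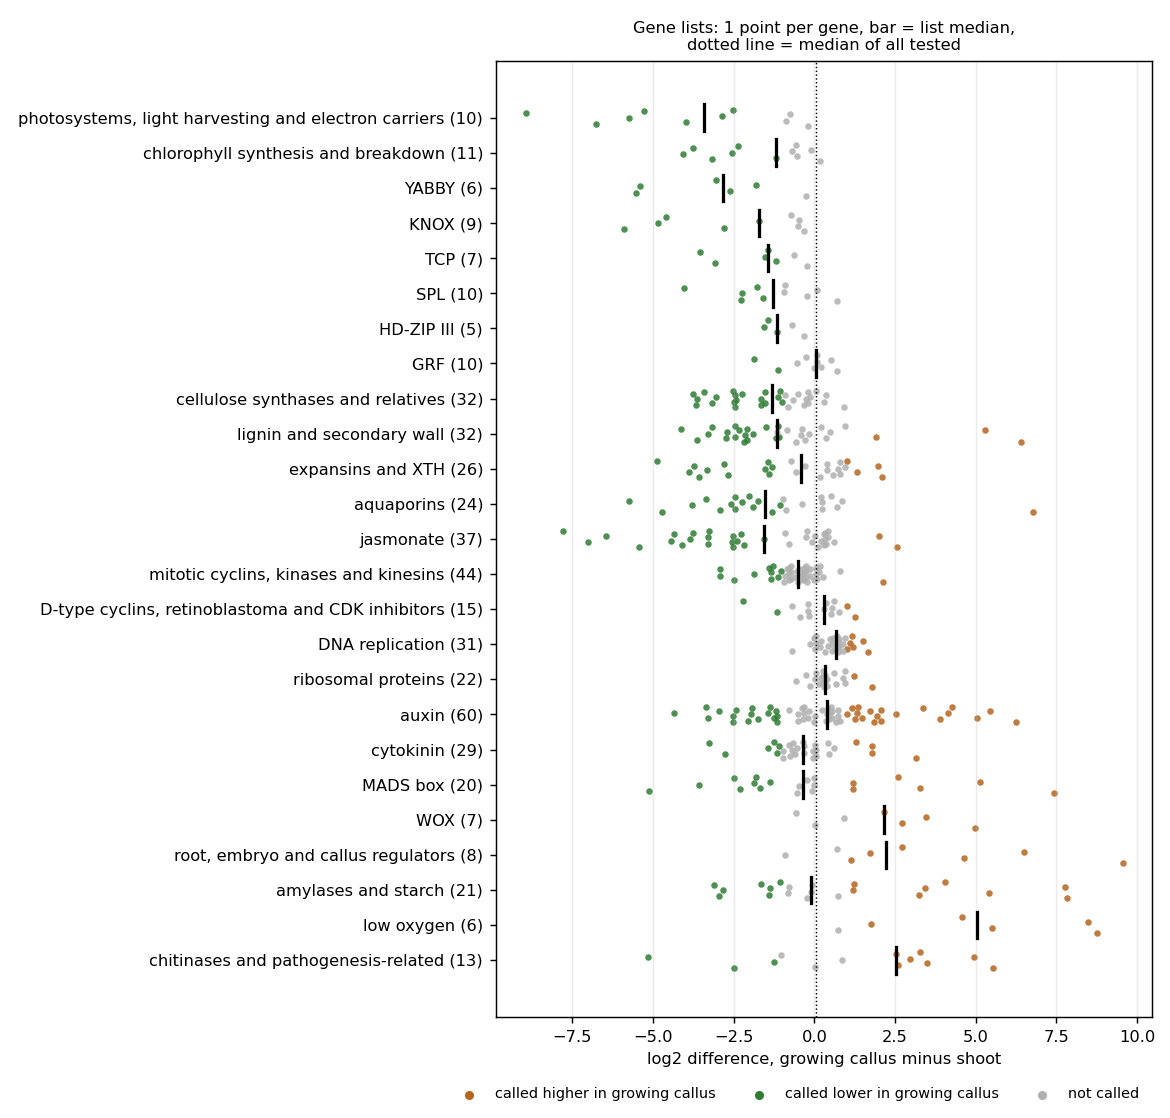
Log2 difference, growing callus minus shoot, for each tested gene of 25 gene lists (1 point per gene, number of genes in parentheses). Vertical bars are list medians and the dotted line is the median of all tested probe sets, 0.06. Photosystem and YABBY genes lie mostly left of the line, low-oxygen genes lie right of it, and auxin genes spread from -4.34 to 6.25.

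Photosynthesis genes checked the tissue labels. Of 10 genes of photosystems, light harvesting and electron carriers, 7 fell in growing callus and 0 rose, with a median of -3.42. CAB2R (LOC4324599), a chlorophyll a/b binding protein of the light-harvesting antenna, read 0.154, 0.196 and 0.134 in the callus arrays. In shoot it read 89.5, 88.3 and 80.2, and the difference was -8.94 ± 0.23 (SE, n = 3 per group, limma adjusted p = 3.42e-18). All shoot arrays lay far above all callus arrays. PETE, the plastocyanin that carries electrons to photosystem I, read 0.119 to 0.329 in callus and 22.4 to 25.5 in shoot. LHCP, another antenna protein, read 0.271 to 0.351 in callus and 14.9 to 19.2 in shoot. The 3 genes that missed the threshold (OsPSAG, LFNR1 and LIR1, with differences from -0.89 to -0.19) also read low in shoot. LFNR1, a ferredoxin-NADP reductase of the leaf, had a mean of 0.687 in shoot and 73.8 in young leaf. The small Rubisco subunit OsrbcS fell in callus, from 1.48 ± 0.24 (SD, n = 3) in shoot to 0.326 ± 0.036, and it stood at 88.0 ± 16.9 (SD, n = 4) in young leaf. Antenna genes were thus high in shoot, while LFNR1 and OsrbcS lay far below their level in young leaf. The other tested probe sets of OsrbcS gave -0.33 and -0.66. Of 11 genes of chlorophyll metabolism, 6 fell and 0 rose. They included PORA and PORB, the light-dependent protochlorophyllide reductases (-3.75 and -2.35), and CHLP (-3.18), which makes the phytol tail. SGR, the stay-green gene of chlorophyll breakdown, fell as well (-4.07).

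The regulators of organ formation leaned the same way. Across KNOX, YABBY, WOX, HD-ZIP III, TCP, GRF, SPL and other patterning genes, 32 of 71 tested genes fell in growing callus and 8 rose. The median was -0.73, against 0.05 for all genes. The families did not all lean alike, and they are described in turn.

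KNOX genes encode homeobox proteins, among them those of the meristem and stem. Of 9 tested, 5 fell and 0 rose, with a median of -1.71. OSH1 (LOC4333973), the rice gene of meristem maintenance in this family, read 0.143, 0.183 and 0.0941 in the callus arrays. It read 9.79, 9.73 and 7.30 in the shoot arrays, a difference of -5.90 ± 0.36 (SE, adjusted p = 4.2e-12). Every callus array was below the array median and every shoot array stood far above it. A further probe set of OSH1 gave -4.86. OSH71 followed, at 0.203 to 0.311 in callus and 4.45 to 6.78 in shoot. HOS66 read 0.0916 to 0.171 in callus and 2.80 to 6.04 in shoot. HOS59 and OSH6 fell by 2.81 and 1.71 on the log2 scale, and for these callus kept readable levels (1.28 to 1.62 for HOS59). HOS59 was not highest in shoot, with means of 9.46 in shoot, 17.4 in root and 93.8 in young leaf. The other members, OSH3, OSH45, OSH43 and HOS58, had differences from -0.73 to -0.31. HOS58 was high in both tissues, at 8.91 to 10.1 in callus and 10.4 to 10.7 in shoot, so the family did not shift as a block. Like HOS59, it had higher means in root (20.2) and young leaf (28.6) than in shoot.

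YABBY genes encode zinc finger proteins of leaf and floral organ primordia. Of 6 tested members, 5 fell and 0 rose, and OsYABBY7 was not tested. OsYAB2 (LOC4333584) read 0.0968, 0.164 and 0.0955 in callus. In shoot it read 5.91, 5.16 and 6.71, a difference of -5.52 ± 0.20 (SE, adjusted p = 8.06e-16). OsYAB1 gave a like picture, with 0.0989 to 0.117 in callus and 4.36 to 5.58 in shoot. OsYAB5 (-3.04), OsYAB7 (-2.61) and DL (-1.81), the gene of the leaf midrib and carpel, fell as well. OsYAB3 was the exception. It read 3.63, 6.53 and 2.41 in callus and 5.49, 3.28 and 4.01 in shoot, with a difference of -0.25 ± 0.29 (SE, adjusted p = 0.515). The groups overlapped, and without growing callus replicate 3 the difference was 0.08.

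**Figure D2:**
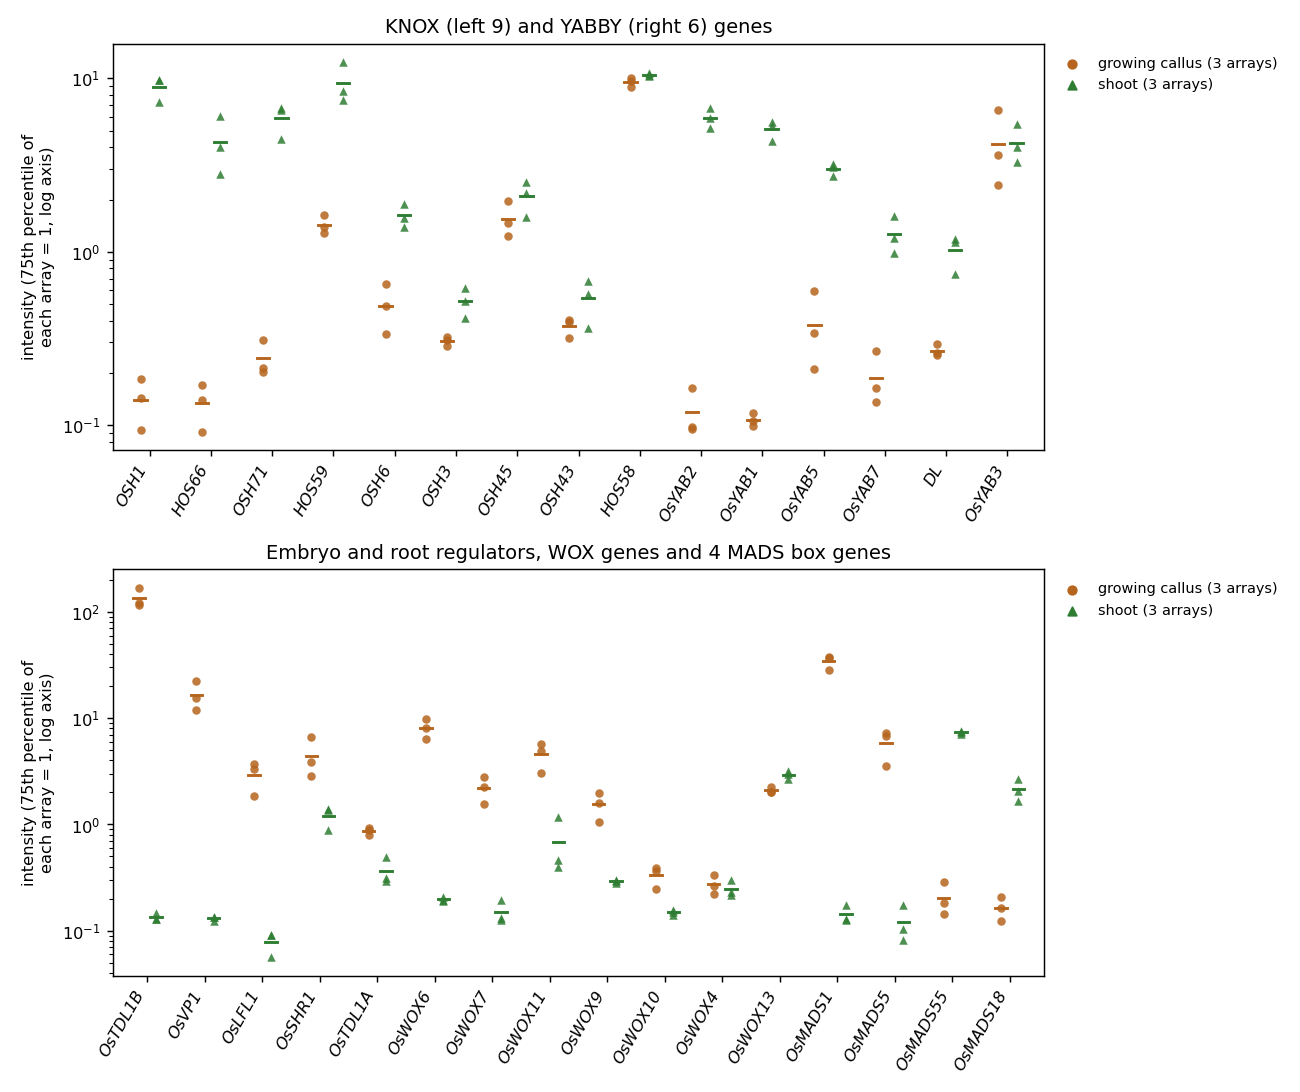
Intensity of each array (log axis, 75th percentile of each array = 1) for KNOX and YABBY genes (upper panel) and for embryo and root regulators, WOX genes and 4 MADS box genes (lower panel), with group means as bars. OSH1 and OsYAB2 lie under 0.2 in the 3 growing callus arrays and over 5 in the 3 shoot arrays, and OsTDL1B, OsVP1 and OsMADS1 show the opposite order.

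Leaf polarity and growth regulators outside these families fell in part. Of 5 class III HD-ZIP genes, which specify the upper leaf side and vascular tissue, 3 fell: OsHox32 (-1.56), OsHox9 (-1.42) and OsHox10 (-1.15, but -0.99 without growing callus replicate 3). Of 7 TCP genes, 5 fell and 0 rose. PCF7 read 0.163 to 0.285 in callus and 1.91 to 3.91 in shoot. SPL genes include targets of the microRNA miR156 that time the growth phases. Of 10 tested SPL genes, matched by name and not by whether miR156 targets them, 5 fell and 0 rose. SPL2 read 0.727, 0.534 and 0.643 in callus and 9.03, 9.74 and 11.8 in shoot (-4.03 ± 0.29 SE, adjusted p = 7.13e-11). OsSPL14, known for its effect on tiller number, read 0.202 to 0.353 in callus and 0.916 to 1.87 in shoot. SPL4 fell by 1.59 on 1 probe set, while its other tested probe set gave 0.06. GRF genes, growth-regulating factors of dividing leaf cells, showed no such lean. Among 10 GRF genes 2 fell and 0 rose, and the median was 0.04. OsGRF7 fell by 1.86, and OsGRF10 by 1.11 (0.95 without growing callus replicate 1).

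Other patterning genes moved in both directions, with 8 of 18 lower and 4 higher. OsFON1, a receptor kinase that limits floral meristem size, read 0.158 to 0.239 in callus and 1.95, 5.31 and 1.79 in shoot. Its highest shoot value was that of replicate 2, the array with more of the root markers. The mean of OsFON1 was higher in root (4.57) than in shoot (3.02). LBD6 (-2.59) and OsRS2 (-1.42), related to the leaf polarity genes AS2 and ROUGH SHEATH2 of other plants, fell. ERF78, the FZP gene of spikelet formation, rose, with 1.37 to 1.76 in callus and 0.120 to 0.133 in shoot. PLA3, a peptidase gene whose mutant makes leaves at a faster pace, rose by 2.30.

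WOX homeobox genes went against the other families. Of 7 tested members 4 rose and 0 fell, with a median of 2.17. OsWOX6 (LOC4332705) read 6.40, 8.06 and 9.81 in callus and 0.209, 0.192 and 0.196 in shoot (4.98 ± 0.18 SE, adjusted p = 3.93e-16). All callus arrays were above all shoot arrays, and a second probe set gave 1.68. OsWOX7 read 1.55 to 2.82 in callus and 0.127 to 0.193 in shoot. OsWOX11, a gene of crown root formation, read 5.73, 4.91 and 3.03 in callus and 0.466, 1.18 and 0.399 in shoot (2.73 ± 0.33 SE, adjusted p = 3.81e-07). It is itself 1 of the 7 root markers, and read 1.03, 1.22 and 0.757 in root, below every callus array. The highest shoot value was that of replicate 2, the array in which other root markers were higher as well, and their part in this difference was not tested. OsWOX9 rose by 2.17. OsWOX10 (0.91), OsWOX4 (0.03) and OsWOX13 (-0.58) missed the threshold. The OsWOX10 difference passed it without growing callus replicate 1 (1.12), and the sign of OsWOX4 depended on which array was left out.

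The list of root, embryo and callus regulators held 8 genes, of which 6 rose and 0 fell, with a median of 2.23. OsWOX11, described above, is 1 of the 6, and OsTDL1A and OsTDL1B are not known as regulators of this kind. OsVP1 (LOC4324314), the B3 factor of seed maturation, read 11.97, 22.6 and 15.5 in callus and 0.135, 0.135 and 0.124 in shoot (6.49 ± 0.21 SE, adjusted p = 1.32e-16). OsLFL1, a B3 factor related to the Arabidopsis embryo genes LEC2 and FUS3, read 1.86 to 3.67 in callus and 0.0565 to 0.0906 in shoot. Both were under the array median in each shoot array and well above it in each callus array. OsTDL1B (LOC9270335), a small protein related to the anther ligand TPD1 of Arabidopsis, read 122, 169 and 116 in callus and 0.146, 0.128 and 0.129 in shoot (9.55 ± 0.18 SE). Its other tested probe set gave 0.53, so the probe sets disagreed. OsSHR1, of the radial pattern of the root, rose by 1.73 and OsTDL1A by 1.13, while OsSCR1 (0.72) and OsRAA1 (-0.91) missed the threshold. OsRAA1 passed it without growing callus replicate 1 (-1.02) and without shoot replicate 1 (-1.16).

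MADS box genes changed in both directions. Of 31 matched, 20 were tested, 6 rose and 8 fell. OsMADS1 (LOC4332059), a SEPALLATA-like gene of the spikelet, read 36.9, 37.4 and 28.3 in callus and 0.129, 0.173 and 0.126 in shoot (7.41 ± 0.17 SE, adjusted p = 3.82e-19). OsMADS5, of the same subfamily, read 3.54 to 7.30 in callus and 0.0823 to 0.176 in shoot. These are flower genes, and every callus array lay far above every shoot array. OsMADS55, related to the Arabidopsis gene SVP, went the other way, with 0.145 to 0.288 in callus and 7.13 to 7.56 in shoot. OsMADS47, another SVP relative, fell by 2.49, and OsMADS18, an AP1-like gene, by 3.58. Among 26 other homeobox genes 7 rose and 6 fell. OsHox15 (-3.95) and OsHox21 (-2.88) fell, while OsHox2 (2.54) and the epidermal genes Roc4 (1.82) and Roc5 (1.23) rose.

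Of 44 mitotic cyclins, kinases and kinesins, 10 (22.7%) fell in growing callus and 1 (2.27%) rose, with a median of -0.50. With no fold threshold 23 were lower and 2 higher at an adjusted p under 0.05. A split of this list, made after its values were seen, set 34 kinesins apart from the rest. The kinesins were matched by gene name, and whether each acts in mitosis was not checked. All 11 called genes were kinesins. The 10 cyclins, kinases and others had differences from -0.79 to 0.09, and none passed the 2-fold threshold. Their median was -0.31, and that of the kinesins was -0.58. CYCB1-1, a B-type cyclin named after its values were seen, had means of 4.88 ± 1.15 in callus and 7.47 ± 0.68 in shoot (SD, n = 3), and 0.119 ± 0.021 in young leaf (n = 4). The difference between callus and shoot was -0.79 (limma adjusted p = 0.0114), and that between callus and young leaf was 5.09 (adjusted p = 5.01e-15). This cyclin was thus measured in both tissues and was far lower in young leaf. KIN4A (LOC4346402), a kinesin known from a brittle culm mutant of rice, read 0.730, 0.668 and 0.902 in callus and 6.24, 5.05 and 5.73 in shoot (-2.93 ± 0.16 SE, adjusted p = 1.06e-12). KIN14B (-2.94), KIN7J (-2.49) and KIN8B (-1.86) also fell. KIN14M was the kinesin that rose, with 0.821 to 1.05 in callus and 0.156 to 0.206 in shoot.

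DNA replication genes showed small differences of mostly positive sign. Of 31 genes, 28 were positive, with a median of 0.67, and 6 passed the 2-fold threshold, all higher in growing callus. ORC5 (LOC4334180), a subunit of the origin recognition complex, read 1.22, 1.46 and 1.297 in callus and 0.510, 0.413 and 0.354 in shoot (1.52 ± 0.16 SE, adjusted p = 4.69e-08). The groups did not overlap. OsORC3 rose by 1.19 and OsORC4 by 1.65 (1.04 without shoot replicate 2, and 0.97 on its other tested probe set). FAS2, of the chromatin assembly factor that loads histones behind the fork, rose by 1.15. The 8 tested MCM helicase genes had a median of 0.41 and 1 of them rose, and none of the 7 RPA and 5 RFC genes reached 2-fold (medians 0.75 and 0.67). With no fold threshold, 20 of the 31 genes were higher and 1 lower at an adjusted p under 0.05, against 31.8% and 29.0% of all genes.

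Upstream of replication, OsRBR1, a retinoblastoma-related repressor of S phase entry, rose by 1.25 (0.99 without shoot replicate 2). CYCD3-2, a D-type cyclin, rose by 1.003, but the call was lost without growing callus replicate 2 (0.79) and without shoot replicate 2 (0.74). KRP1, an inhibitor of cyclin-dependent kinases, fell, with 0.314 to 0.924 in callus and 2.12 to 2.73 in shoot. CYCD5-3 fell by 1.15, and the other 11 genes of this list missed the threshold. None of 5 histone H2B genes was called, with differences from -0.85 to 0.12. Among 11 tubulin genes OsTUB8 (-4.44) and TUB4 (-1.16) fell and 0 rose. Among 22 ribosomal protein genes RPS10-1 (1.78) and rps20 (1.22) rose and 0 fell.

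**Figure D3:**
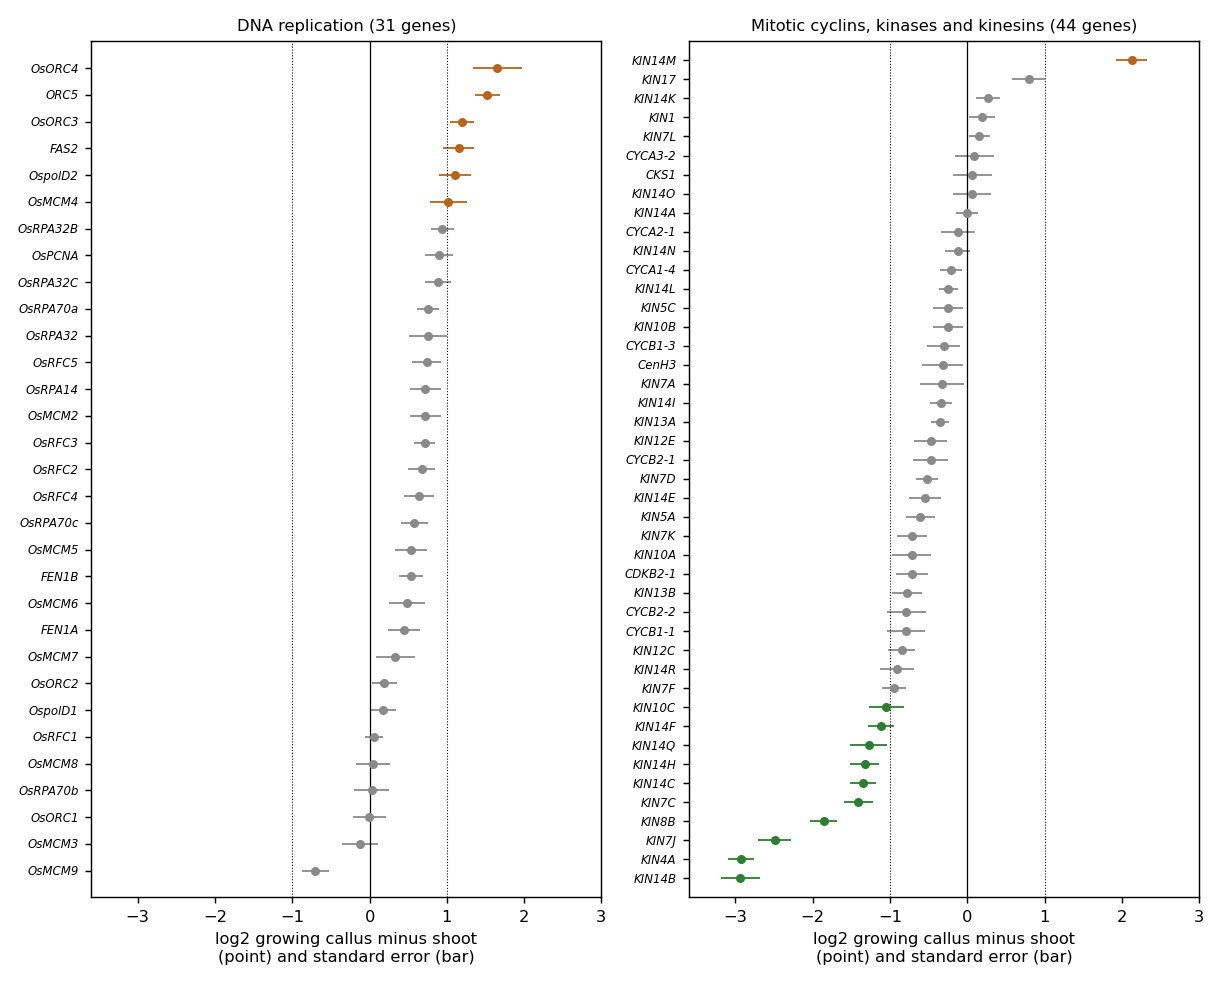
Log2 difference, growing callus minus shoot (point), with its standard error from limma (bar). The genes are 31 of DNA replication (left) and 44 mitotic cyclins, kinases and kinesins (right). Dotted lines mark a 2-fold difference, and colour marks genes that passed the call. Most replication genes lie between 0 and 1, and the genes beyond the lines on the right are kinesins.

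Auxin genes were among those that changed often, in both directions. Of 60 tested, 19 (31.7%) rose and 17 (28.3%) fell. GH3.2 (LOC4326893), an enzyme that couples auxin to amino acids, read 62.0, 67.7 and 64.8 in callus and 0.792, 0.981 and 0.572 in shoot (6.25 ± 0.26 SE, adjusted p = 6.43e-15). SAUR39, an early auxin gene, read 5.61 to 7.59 in callus and 0.0878 to 0.120 in shoot. IAA9 and IAA20, Aux/IAA repressors of auxin response, rose by 5.04 and 4.26. All of these had callus arrays far above shoot arrays. Yet of 25 Aux/IAA genes 8 rose and 6 fell, and of 17 ARF genes, which encode the DNA binding auxin response factors, 4 rose and 7 fell. ARF12 read 2.73 to 3.15 in callus and 24.1 to 27.9 in shoot, and IAA17 read 13.8 to 17.0 in callus and 63.2 to 84.4 in shoot. ARF3 rose by 1.73.

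Among 29 cytokinin genes, 4 (13.8%) rose and 6 (20.7%) fell, near the shares of all genes. LOGL1, a relative of the enzyme LOG that releases active cytokinin, read 2.28 to 3.32 in callus and 0.216 to 0.288 in shoot. LOGL7, of the same family, went the other way, with 0.169 to 0.203 in callus and 1.75 to 2.15 in shoot. The cytokinin oxidase OsCKX11 rose by 1.77 and OsCKX5 fell by 2.76. The response regulator OsRR5 rose by 1.77 and OsRR6 fell by 1.44. Of 26 gibberellin and brassinosteroid genes, 5 rose and 6 fell. The gibberellin enzyme genes OsCPS1 (-3.35) and osGA20ox2 (-3.18), the semidwarf gene of rice breeding, fell, and so did the DELLA repressor SLR1 (-1.51). GA20OX3 rose by 2.02. D11, a cytochrome P450 of brassinosteroid synthesis, read 9.90, 17.4 and 10.7 in callus and 0.905, 0.526 and 0.841 in shoot (3.92 ± 0.24 SE). Of 27 ethylene and abscisic acid genes 3 rose and 7 fell. The ethylene receptors OsETR3 (-2.59) and OsETR4 (2.04) differed in direction, and the abscisic acid factor OsABF2 fell by 2.29.

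Jasmonate genes were mostly lower in growing callus. Of 37 tested, 19 fell and 2 rose, with a median of -1.54. AOS1 (LOC4334233), the allene oxide synthase of jasmonate synthesis, read 0.315, 0.339 and 0.329 in callus and 23.9, 32.1 and 27.3 in shoot (-6.46 ± 0.20 SE, adjusted p = 4.41e-17). The JAZ repressors, which jasmonate both degrades and induces, gave 12 of 13 lower and 0 higher, with a median of -3.28. OsJAZ13 (LOC4348531) read 0.157, 0.150 and 0.172 in callus and 24.5, 53.9 and 30.5 in shoot. OsJAZ9 read 0.137 to 0.288 in callus and 14.7 to 49.1 in shoot. The highest shoot value of both genes was that of replicate 2, and neither group overlapped the other. OsbHLH148, a factor that acts with JAZ proteins in rice, read 0.283 to 0.385 in callus and 17.3 to 26.0 in shoot. The reductase genes OsOPR1 (2.56) and OsOPR5 (2.01) rose. OsOPR1 read 0.717, 4.34 and 0.588 in the shoot arrays and rose by 3.48 without shoot replicate 2.

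Most cellulose synthase genes were lower in growing callus. Of 32 cellulose synthase and related genes 19 fell and 0 rose, with a median of -1.31. Among the 9 CesA catalytic subunits 8 fell. OsCesA4, OsCesA7 and OsCesA9 build the cellulose of secondary walls. OsCesA7 (LOC4348853) read 0.247, 0.321 and 0.403 in callus and 3.23, 3.38 and 2.31 in shoot (-3.16 on the log2 scale). The 3 genes summed to 0.781 to 1.09 in callus arrays and 6.63 to 10.8 in shoot arrays. Among the subunits of primary walls, OsCesA1 fell by 1.64 and OsCesA5 by 1.51. OsCslF6, the synthase of the mixed-linkage glucan of grass walls, read 1.11 to 1.42 in callus and 13.6 to 18.3 in shoot.

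Of 32 lignin and secondary wall genes 18 fell and 3 rose. Os4CL5, a coumarate ligase, fell by 3.64, OsCAD6 by 4.13 and the laccase LAC4, a lignin polymerizing enzyme, by 2.18. The 3 that rose were OsCCR1, OsCAD7 and HCT1. OsCCR1 (LOC4331085), a cinnamoyl-CoA reductase, read 10.5, 21.9 and 17.4 in callus and 0.110, 0.188 and 0.127 in shoot (6.39 ± 0.22 SE, adjusted p = 1.96e-16). OsCAD7 read 9.82 to 18.6 in callus and 0.179 to 0.385 in shoot. The lignin list thus held members far apart in both directions. Of 26 expansins and XTH genes, which loosen walls, 11 fell and 4 rose. OsEXP8, among the 4 that rose, lost the call without growing callus replicate 2 or 3 and without any of the shoot replicates. Its differences in those fits were 0.71 to 1.14. OsEXP2 read 0.166 to 0.209 in callus and 4.67 to 6.75 in shoot, while OsEXP7 read 57.0 to 71.5 in callus and 11.5 to 19.8 in shoot. Of 9 GH9 glucanases 4 fell and 1 rose, and OsGLU2 read 2.98 to 3.46 in callus and 28.1 to 32.1 in shoot. OsGLU5 read 0.752, 0.341 and 4.56 in callus and rose by 2.38, but by 1.37 without growing callus replicate 3 and by 3.15 without replicate 2.

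Most aquaporins, the water channels of membranes, were lower in growing callus. Of 24 tested, 14 fell and 1 rose, with a median of -1.53, and among 10 plasma membrane PIP genes 6 fell. OsPIP1;2 read 3.15, 3.07 and 2.92 in callus and 33.5, 35.3 and 38.2 in shoot (-3.80 ± 0.25 SE). NIP1-1 read 0.298 to 0.477 in callus and 6.66 to 13.9 in shoot. The gene that rose was OsTIP3;1, a vacuolar aquaporin typical of seeds. It read 51.2, 42.0 and 5.79 in callus and 0.138 to 0.162 in shoot (6.79 ± 0.53 SE, 7.76 without growing callus replicate 3).

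Of 21 amylase and starch genes 8 rose and 7 fell, with a median of -0.10. Among 5 tested alpha-amylases, enzymes that break down starch, 4 rose. AMY1.4 (LOC4345812) read 88.4, 66.8 and 12.2 in callus and 0.111 to 0.146 in shoot (7.81 ± 0.42 SE, 8.68 without growing callus replicate 3). AMY1.3 read 82.1, 57.8 and 12.5 in callus and 0.619 to 1.24 in shoot. AMY1.1 did not share the order of the callus arrays, with 26.5, 11.6 and 30.6. AMY1.2, named after its values were seen, read 28.3, 4.40 and 0.115 in callus and 0.0811, 0.141 and 0.136 in shoot (4.06 ± 1.255 SE, adjusted p = 0.0101). Growing callus replicate 3 lay among the shoot arrays for this gene, so the groups overlapped. RASI, an amylase inhibitor, rose by 3.42, and the starch synthase SSII-2 fell by 3.10, while its other tested probe set gave -0.17. Of 15 tested genes of seed storage proteins and late embryogenesis 6 rose, 1 fell and 8 were not called. The 6 that rose were all of the late embryogenesis and abscisic acid responsive kind. That kind did not rise as a block, since OsDhn1 (-0.99), RAB16C (-0.89) and RAB16D (-0.35) were not called.

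LEA19 read 42.2, 19.9 and 6.81 in callus and 0.111 to 0.129 in shoot (6.71 ± 0.64 SE). Osem read 66.1, 28.4 and 1.05 in callus and 0.159 to 0.184 in shoot (5.80 ± 0.81 SE), and gave 4.60 without growing callus replicate 1 and 7.54 without replicate 3. RAB21, a dehydrin, read 92.3, 21.7 and 0.982 in callus and 0.247 to 0.440 in shoot (4.99 ± 1.09 SE), and gave 3.54 without replicate 1 and 6.78 without replicate 3. For all 3 genes replicate 1 was the highest callus array and replicate 3 the lowest, yet no callus array overlapped the shoot arrays. rab25 showed the same order (3.81, with 2.85 and 5.01 without growing callus replicates 1 and 3). OsSWEET1b, a sugar carrier, did too, with 33.8, 11.7 and 5.85 in callus and 0.162 to 0.207 in shoot (5.74, or 5.06 without replicate 1). What set the callus arrays apart in these genes was not tested. Of 6 storage protein and seed allergen genes 0 rose and 1 fell. Of 20 tested sugar transport and invertase genes 4 rose and 6 fell. The monosaccharide transporter OsMST3 (3.23) rose and the cell wall invertases OsCIN2 (-2.85) and OsCIN1 (-2.10) fell.

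Genes of low-oxygen metabolism were mostly higher in growing callus. Of 6 genes 5 rose and 0 fell, with a median of 5.04. NSHB2 (LOC4332123), a non-symbiotic haemoglobin, read 95.6, 116 and 101 in callus and 0.158, 0.252 and 0.158 in shoot (8.76 ± 0.25 SE, adjusted p = 1.67e-17). NSHB1 read 90.8 to 103 in callus and 0.153 to 0.283 in shoot, on a probe set that can detect related transcripts. Another NSHB1 probe set read 57.0 to 62.3 in callus and 0.157 to 0.216 in shoot. PDC1, a pyruvate decarboxylase of fermentation, read 82.0 to 131 in callus and 1.68 to 2.74 in shoot, and PDC2 rose by 1.76. For these genes every callus array lay above every shoot array. PDC1 was also high in root, at 138 ± 20 (SD, n = 3), whereas NSHB2 was at 2.90 ± 0.36 there. Adh2, named after its values were seen, rose by 4.59 with a larger SE of 0.54. It read 21.2 to 27.9 in callus and 0.453, 1.75 and 0.862 in shoot, and its mean in root was 146. Chitinases and pathogenesis-related genes, which include defence enzymes, gave 7 of 13 higher and 3 lower, with a median of 2.52. Cht3 read 8.59 to 18.6 in callus and 0.255 to 0.563 in shoot, and Chib3H-a, also named as the xylanase inhibitor RIXI, read 20.8 to 60.6 and 0.544 to 0.802. Cht4 fell, with 0.0570 to 0.0790 in callus and 1.72 to 4.83 in shoot. Cht9 was also called lower, but lost the call without growing callus replicate 1, 2 or 3. It lost the call without shoot replicate 1 or 3 as well (limma adjusted p from 0.0573 to 0.146 over these fits).

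**Figure D4:**
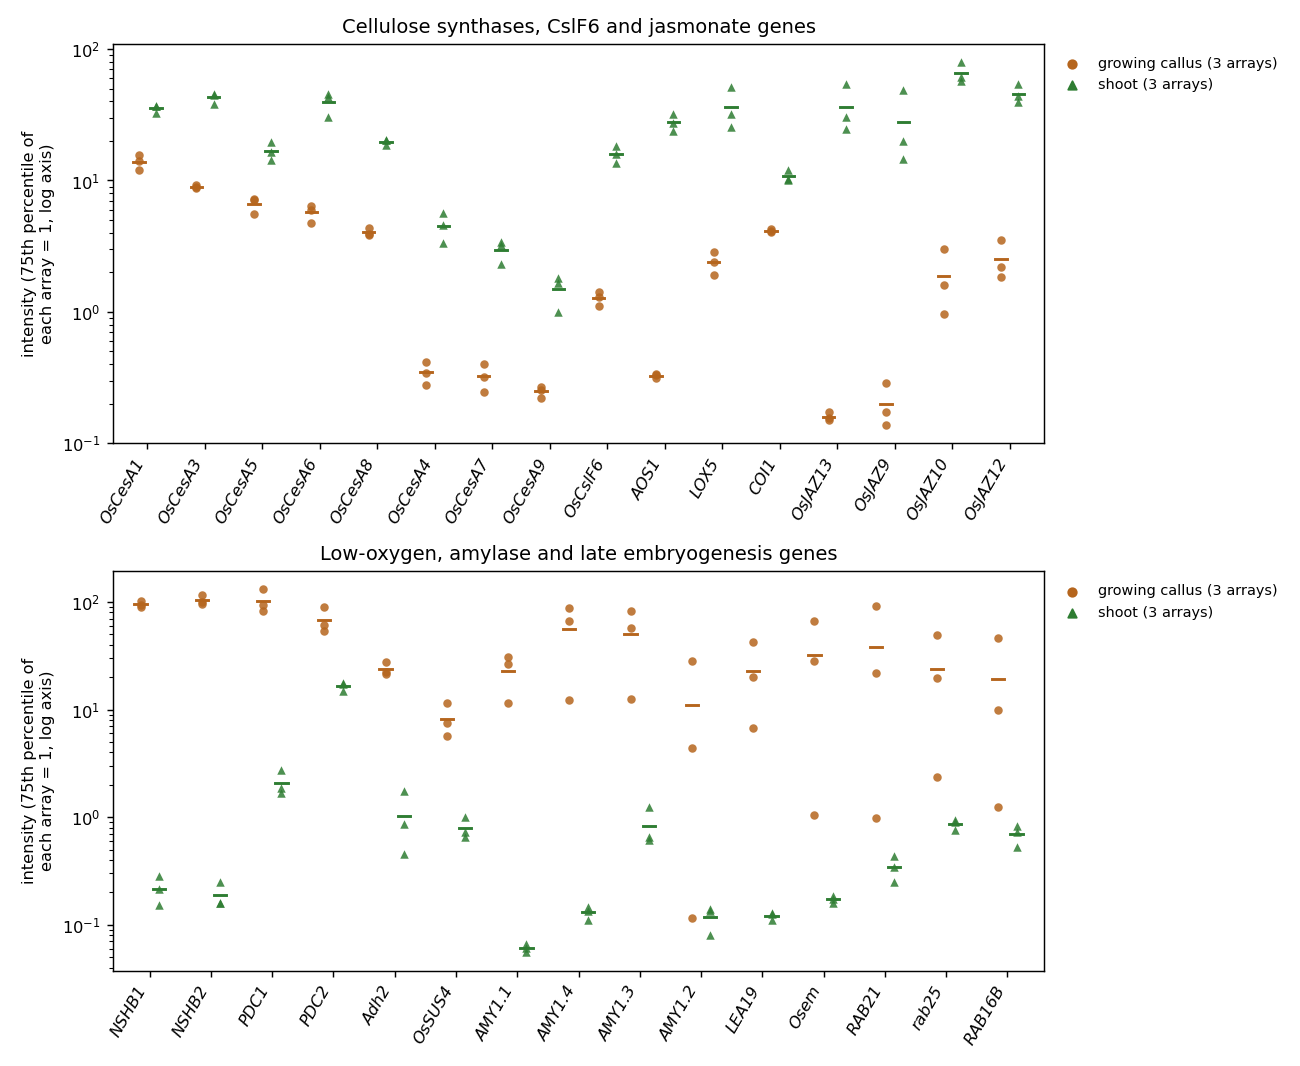
Intensity of each array (log axis, 75th percentile of each array = 1) for cellulose synthase and jasmonate genes (upper panel) and low-oxygen, amylase and late embryogenesis genes (lower panel), with group means as bars. The callus points of NSHB1 and NSHB2 lie together near 100, while those of Osem spread from 1.05 to 66.1. The probe set shown for NSHB1 can detect related transcripts.

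Outside the lists, named genes with large differences were of varied kinds. OsPP2C45, a protein phosphatase, rose by 7.57, and R1C-Prx, a peroxidase, by 6.96. OsSAG12, a cysteine protease also named REP1, read 22.3 to 32.97 in callus and 0.164 to 0.218 in shoot. OsAPY3, an apyrase, read 0.118, 0.144 and 0.167 in callus and 79.2, 85.2 and 67.7 in shoot (-8.99 ± 0.16 SE). OsBURP17 (-8.13), of the BURP domain family, and DXPS (-5.98), named for the plastid step that opens isoprenoid synthesis, fell.

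The other 6 groups place these levels. OSH1 was high in shoot alone, since the other 22 arrays of the series read 0.0572 to 0.500. CAB2R was higher still in young leaf (113 to 163) and read 1.51 to 3.80 in callus at 6 days. OsYAB2 read 0.282 to 0.432 at 2 days, 0.791 to 1.13 at 4 days, 1.13 to 1.86 at 6 days and 1.67 to 2.16 at 8 days on regeneration medium. Young leaf (1.15 to 1.596) overlapped the 6-day callus for this gene, root (0.120 to 0.197) overlapped growing callus, and shoot was above all of them. OsMADS1 and OsTDL1B were high in callus at every stage. OsMADS1 read 25.0 to 55.1 across the callus arrays and 0.119 to 0.284 across the organs, and OsTDL1B read 55.7 to 169 and 0.128 to 0.283.

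The order of the groups differed between genes. GH3.2 read 20.4 to 34.8 in root and 0.283 to 0.531 in young leaf, with 15.4 to 30.9 in callus after 2 days and later. OsWOX6 read 1.22 to 1.501 in root, 1.90 to 3.67 in callus on regeneration medium and 0.119 to 0.182 in young leaf. AOS1 read at most 13.1 in root and 4.13 to 6.96 in young leaf, and no callus array of any stage exceeded 0.373. OsCesA7 was highest in root (5.02 to 8.73), and young leaf (0.222 to 0.414) overlapped growing callus. These levels across groups are a description, with no test.

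**Figure D5:**
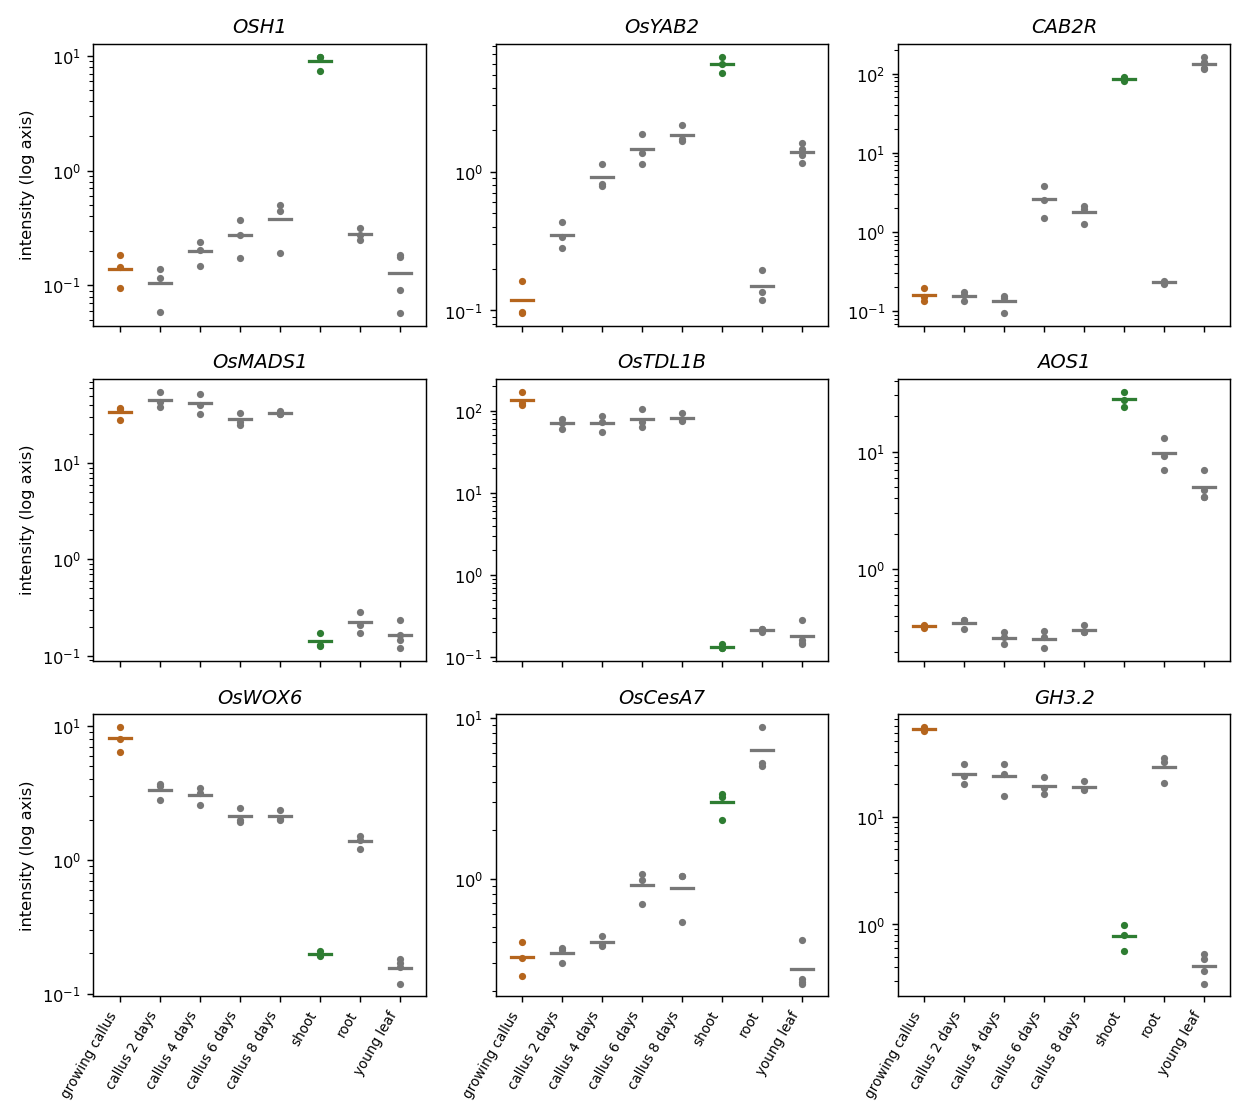
Intensity of each array (log axis, 75th percentile of each array = 1) in the 8 groups for 9 genes, with group means as bars, growing callus in brown and shoot in green. OSH1 is over 7 in shoot and at most 0.500 elsewhere, and OsMADS1 and OsTDL1B separate all callus groups from the 3 organs.

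Probe sets that can detect related transcripts gave the values of OsYAB1, OSH43, PLA3, SPL4, LBD6, OsHox15, OsHox21, OsRBR1, OsORC4, KIN8B, rps20, NSHB1, AMY1.4, LEA19, Cht3, IAA17, D11, LOGL1, PORB, SGR, OsrbcS, OsTIP3;1 and the prolamin gene. With 3 arrays per group, leaving out an array leaves 2, whose spread is taken from the fit over all groups.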

How the data were processed

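Total RNA was hybridized to Affymetrix Rice Genome Arrays, and the deposited values are linear intensities, 1 per probe set and array, with the 75th percentile of each array at 1. GCOS 1.3 is named per the submitters' processing notes, and the summary and background steps are not given in the sources used here. From 57381 probe sets, 187 controls were left out, and 37212 above the array median in at least 3 of 25 arrays were tested. A constant of 0.0274 (10% of the median, 0.274) was added, and log2 values were quantile normalized. All 8 groups entered 1 fit in limma 3.58.1 (R 4.3.3) with 17 residual and 5.4 prior degrees of freedom. The platform annotation gave 1 gene to 22436 probe sets and several to 95, all 17905 genes matched RefSeq's table (ASM3414082v1), and a gene is represented by its probe set of highest mean. In simulated data on 37212 probe sets for growing callus minus shoot, 80% of log2 steps of 1, 88% of 1.5 and 100% of 2 and 3 were recovered, with 10 false calls. The median estimate for steps of 1 was 0.96, under the 2-fold threshold. The 80% is therefore not the share of such steps that the call with its 2-fold threshold would find.

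Named genes were the 10 largest log2 changes per direction among called probe sets with a gene name, no _s_at or _x_at ending and no overlap between groups, up to 4 called genes per list and direction with the smallest adjusted p, and every KNOX, YABBY, WOX and root, embryo and callus regulator. Levels across all 8 groups are given as ranges over arrays, with the groups in no fixed order. Names outside this rule, such as OsCesA1, OsCesA5, OsCesA7, OsCesA9, OsPSAG, LFNR1, LIR1, NIP2-1, AMY1.2 and CYCB1-1, and the splits of lists into subfamilies, were chosen after their values were seen. The members and lists were chosen with earlier results of these data known. Lists are described by counts and medians, with no test of the list. The alternatives were other added constants, scalings, filters, thresholds, priors and sample sets, and the replicate number as a block.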

Additional observations from a re-analysis of the deposited data

Results flagged for a closer look

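The spike-in controls of growing callus replicate 2 stood far above those of the other 5 arrays compared. The poly(A) controls are bacterial transcripts added before labelling, and they entered no comparison. Dap read 239.2 in that array and 1.34 to 2.01 in the others. Lys read 192.1, against 0.269 to 0.362. Phe read 228.9, against 0.254 to 0.400, and Thr read 269.1, against 0.416 to 0.624. The labels state this excess. Without the 3 arrays labelled with it, 1 in each of 3 callus groups, 233 of 239 named probe sets kept their direction and their side of the threshold.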

How the results depend on the processing

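Counts of probe sets and genes stayed within 1.5 times the reported ones under other added constants, scalings, filters, the fit on 6 arrays, a trended prior and each array left out, and the threshold on fold moved them. With no fold threshold 9367 probe sets were higher and 8240 lower. In the list of mitotic cyclins, kinases and kinesins 25 genes passed (2 higher, 23 lower), and 21 DNA replication genes did (20 higher, 1 lower). At 4-fold the counts were 1230 and 1807, with 4 mitotic, 0 DNA replication and 22 organ patterning genes (6 higher, 16 lower); by limma, 21 replication genes passed on adjusted p alone. Leaving out each array in turn gave 3640 to 3958 higher and 4341 to 4491 lower probe sets, 9 to 12 mitotic, 4 to 7 replication, 7 photosystem and 39 to 41 patterning genes. With the replicate number as a block 3794 were higher and 4410 lower, and no named gene changed its call; deviations of same-numbered arrays correlated at 0.017, -0.11 and -0.048, so the numbers were not taken to pair samples. Without quantile normalization 51.0% of calls were higher, and 51.5% with median centring, against 46.2%. The sign of OsWOX4 turned without growing callus replicate 2 (-0.11), without shoot replicate 3 (-0.02) and without the 3 arrays with excess controls (-0.12), with -0.11 to 0.15 over arrays left out, and that of OsYAB3 without growing callus replicate 3, with a range of -0.60 to 0.078; neither gene was called in any of these. Of 4297 values of 239 named probe sets under 18 alternatives, 4155 kept direction and call, 125 lost the call, 13 gained it and 4 reversed. The cause of these changes was not tested. The number of arrays limits the precision, and levels near the lowest readings of an array carry no order.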

Other observations

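Mineral transport genes, which move metals and nutrients between cells, changed in both directions. Of 86 tested genes 22 rose in growing callus and 17 fell. The copper transporters OsCOPT1 and OsCOPT2 rose. OsCOPT2 read 20.4, 22.2 and 18.0 in callus and 0.107, 0.170 and 0.120 in shoot (6.80 ± 0.22 SE, limma adjusted p = 7.71e-17), and 36.8 ± 7.5 (SD, n = 3) in root. Among 8 ZIP transporters of zinc and iron 6 rose, including OsZIP8 (4.41) and OsZIP7 (3.64), and OsZIP3 fell. OsZIP3, known from vascular tissue of rice nodes, read 0.141 to 0.177 in callus and 4.92 to 7.15 in shoot, and its mean was under 0.2 in root, in young leaf and in callus at 2 and 8 days. OsHMA2, a zinc and cadmium pump (-4.18), and OsNramp5, a manganese and cadmium uptake carrier (-3.83), fell.

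Metallothioneins, small metal-binding proteins, gave 4 of 7 higher and 1 lower. MT2B read 0.106, 0.128 and 0.103 in callus and 163, 271 and 141 in shoot (-10.33 ± 0.30 SE, adjusted p = 2.4e-17), on a probe set that can detect related transcripts. 2 more probe sets gave -10.31 and -10.01. In the opposite direction, OsMT1a read 10.6 to 21.9 in callus and 1.25, 6.497 and 1.84 in shoot, where replicate 2 was also the array with more of the root markers. Its difference of 2.50 became 3.21 without that array.

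Of 46 tested small heat shock proteins and heat shock factors, 8 (17.4%) rose and 8 (17.4%) fell, near the shares of all genes. HSF25 rose by 3.44 and OsHsp24.1 by 2.65, while OsHsp17.9B fell by 2.93. Of 28 chromatin and DNA methylation genes 3 rose and 2 fell, with a median of 0.18. The Argonaute OsAGO18 rose by 3.29 and OsAGO1d fell by 1.78. Among 13 tested diterpenoid phytoalexin genes none was called in either direction by limma, with differences from -0.53 to 0.63. Only 2 of them were above the array median in at least 3 of the 6 arrays, so most read low in both tissues and a difference could hardly be measured. Of 6 glutathione S-transferases GST1 (4.88, on a probe set that can detect related transcripts) and GSTU6 (2.42) rose, and GSTF1 (-5.21) and GSTF2 (-1.12) fell. Of 5 lipid transfer proteins, carriers of surface lipids, 3 fell and 2 rose. LTP-2, which rose by 3.92, read 11.8, 2.60 and 1.32 in callus and gave 3.02 without growing callus replicate 1 and 4.59 without replicate 3. Of 7 clock genes OsPCL1 (3.16) and OsPRR95 rose, and OsCCA1 (-1.54) and OsPRR73 (-1.27) fell. The labels give no hour of collection.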
